A study of Mus musculus with 26 samples.

Results

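Potassium, sodium and pacemaker channel genes set the electrical behaviour of the heart, and their transcripts were examined in mouse left ventricle with and without the phosphatase subunit B55α in heart muscle cells. The genes were chosen by name alone: every listed gene whose symbol begins with Kcn followed by letters and a number, the sodium channel subunits Scn with a number and the letter a or b, and the pacemaker channels Hcn. This gave 110 of the 56941 genes listed, and 62 of them were abundant enough to be tested.

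Sodium channels open first in a cardiac action potential and carry the fast upstroke. Potassium channels then return the cell to rest: transient outward and delayed rectifier channels (Kcnd, Kcna, Kcnb, Kcnh and Kcnq subunits) shorten the action potential, inward rectifiers (Kcnj) hold the resting voltage, and leak channels of the K2P class (Kcnk) pass a steady outward current. Pacemaker channels (Hcn) open when the membrane becomes negative and are best known from the sinus node. Accessory subunits (Kcne, Kcnip, Kcnab and the Scn beta subunits) change how much of a channel reaches the membrane and how it gates.

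Polyadenylated RNA from the left ventricle of 26 mice was sequenced. All mice carried 2 loxP-flanked Ppp2r2a alleles (L/L), the gene of B55α, a regulatory subunit of protein phosphatase PP2A. The groups were 6 male and 6 female floxed controls without Cre (Ctrl, aMHC-Cre0/0-Ppp2r2aL/L) and 7 male and 7 female knockouts (cKO, aMHC-CreTg/0-Ppp2r2aL/L). The aMHC promoter drives Cre in cardiomyocytes, so Ppp2r2a stays intact in the other cells of the tissue. The sample labels give the strain as C57BL/6N, and the series describes a mixed background in which the floxed line is C57BL6/N and the Cre line is FVB. Effects of Cre or of FVB sequence cannot be told apart from the knockout with these groups, and mice with Cre alone were not analysed here. Every mouse was 12 to 16 weeks old and had received saline from a minipump for 2 weeks.

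Total counts per library ranged from 14403100 (cKO female 2) to 30867400 (Ctrl male 4). Expression is given as CPM, the counts of a gene scaled to each library's size, and 3 counts, taken as the lowest level a library can show, corresponded to 0.0928 to 0.210 CPM. Ppp2r2a was at 24.1 to 47.7 CPM in Ctrl males, 11.8 to 16.2 CPM in cKO males, 36.2 to 46.7 CPM in Ctrl females and 9.96 to 16.2 CPM in cKO females, so the genotypes did not overlap in either sex. Ctrl males 3 and 6 were the 2 lowest Ctrl mice in Ppp2r2a, and each result was also computed without them. The markers fitted the labelled tissue: the 8 cardiomyocyte genes were all tested and summed to between 58753 and 80601 CPM per library, the atrial light chain Myl7 and sarcolipin (Sln) did not exceed 0.142 CPM in any library, and the sinus node factor Isl1 had no count in any library.

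Levels between genes were compared as CPM per kilobase of merged exons. That length covers every annotated exon, whether or not the ventricle uses it, and the annotation behind the counts is not given. Levels, shares and ratios between genes depend on this choice. Over all 26 mice, 13 channel genes exceeded 10 CPM per kilobase, 27 exceeded 1 CPM per kilobase and the other 35 tested genes lay below it. Kcnk3, the leak channel TASK-1, led with a mean of 81.6 CPM per kilobase and a range over mice of 62.7 to 96.6. Kcnip2, the beta subunit KChIP2 of the transient outward channel, followed at 60.7 CPM per kilobase, and Kcnj11, the pore Kir6.2 of the ATP-sensitive channel, at 44.6. The silent subunit Kcng2 averaged 40.4 CPM per kilobase. Neighbours in this order overlapped in range for Kcnk3 and Kcnip2, for Kcnip2 and Kcnj11, and for Kcnj11 and Kcng2. All values of these 4 genes lay above those of Kcnh2 (17.5 CPM per kilobase), Kcna5 (14.98), Kcnj8 (14.3), Scn4b (13.5) and Hcn2 (12.1), whose ranges overlapped one another. Among the tested genes named here, gene models on the opposite strand overlap Kcnab1, Kcnd3, Kcng2, Kcnh2, Kcnj3, Kcnj15, Kcnk2, Kcnk3, Kcnn1, Kcnn2, Kcnq1, Kcnt2, Scn2b and Scn3b. Their counts are uncertain to that extent because the strand setting of the counting is not given in the sources used here. Models on the same strand overlap Kcnab1, Kcnd2, Kcnd3, Kcng2, Kcnk2, Kcnq1 and Kcnt2, whose counts are uncertain whatever that setting.

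**Figure D1:**
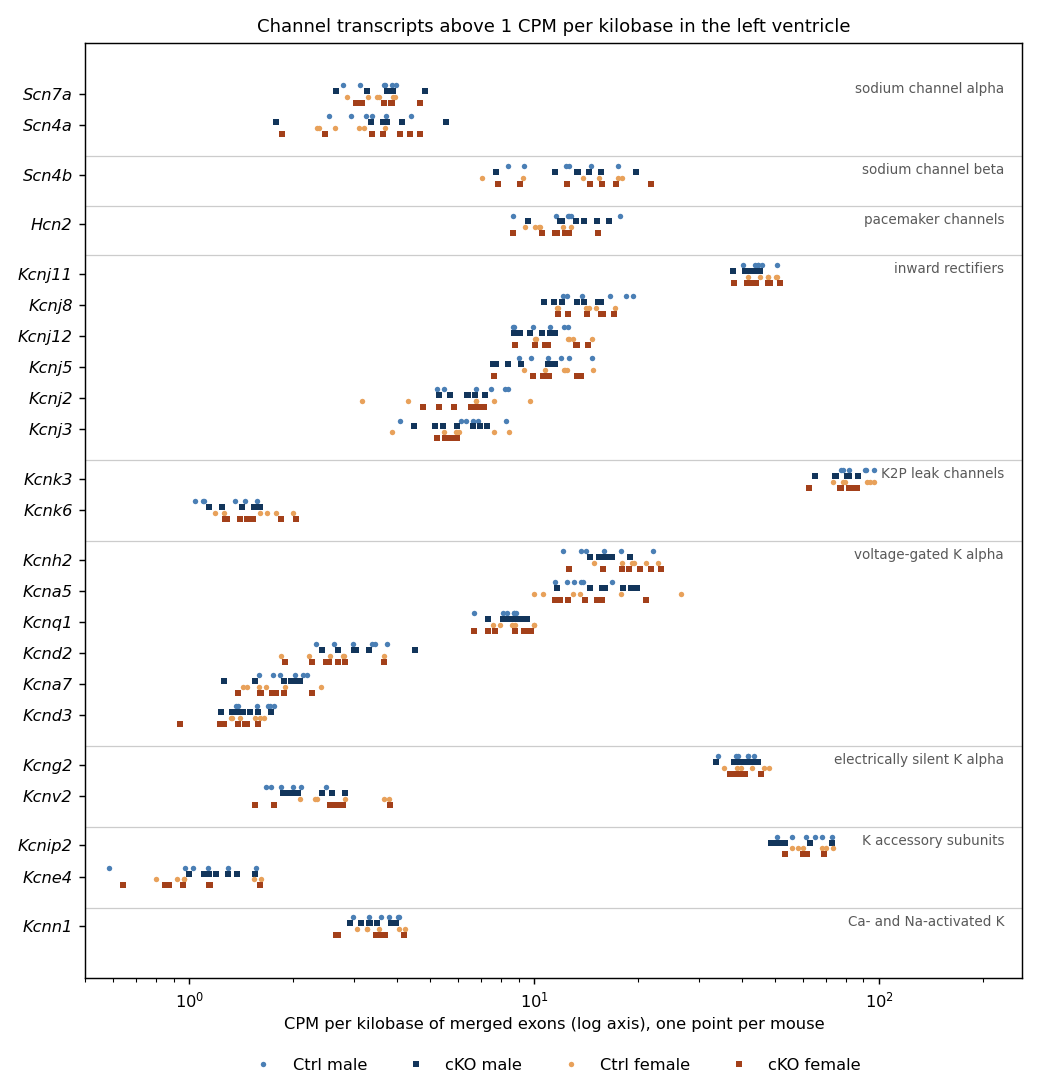
Level of 23 channel genes above a mean of 1 CPM per kilobase (log axis), grouped by channel class, with 1 point per mouse and colour for the group. Kcnk3, Kcnip2, Kcnj11 and Kcng2 stand to the right of all other genes shown, and for most genes the 4 groups cover similar ranges.

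The 48 genes that were not tested did not reach the minimum counts set for testing. Of these, 8 had no count in any library: Kcnv1, Kcnk16, Kcnk7, Kcna10, Kcnj6, Kcnk18, Kcnmb3 and Kcns2. Another 24 never exceeded 3 counts in a library. The others exceeded 3 counts in some library, with a highest count of 17. The highest level of any untested gene was 0.840 CPM. Kcnk1 (TWIK-1), a leak channel, had 133 counts over all libraries and Kcnma1, the pore of the large-conductance calcium-activated channel, had 28. At this depth these genes were left out of the main comparisons between groups.

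Sodium channel transcripts came from pore-forming alpha subunits and from beta subunits, which modulate gating and cell adhesion. Scn4b, a beta subunit whose product can act as an open-channel blocker, ranged from 35.3 to 109 CPM over all mice and overlapped between all groups. The log2 differences between genotypes in males were 0.13 (SE 0.25) for Scn4b, 0.29 (SE 0.27) for Scn2b and 0.18 (SE 0.26) for Scn3b. None of them was called in any contrast.

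Of the alpha subunits, the muscle isoform Scn4a averaged 3.39 CPM per kilobase and the atypical sodium-sensing Scn7a 3.6. The 6 tested alpha subunits had mean genotype estimates from 0.038 to 0.43, with a median of 0.19 against 0.0042 over all genes tested. None was called, against 1.33% of all genes. Scn7a had 0.069 and Scn4a 0.21 on the log2 scale.

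Scn10a encodes Nav1.8, a sodium channel known from sensory neurons. Its level was low, at 0.241 CPM per kilobase. The lowest, median and highest values were 0.619, 0.928 and 2.93 CPM in Ctrl males, 0.431, 2.02 and 2.85 CPM in cKO males, 1.17, 1.75 and 2.49 CPM in Ctrl females and 0.490, 2.19 and 3.96 CPM in cKO females. All 4 groups overlapped. Because its level moved with a conduction system marker across mice, as described further on, the 250 bases before its RefSeq start are shown (GRCm38.p6, chr9:119719033-119719282, minus strand, 5′ to 3′). Capitals would mark matches to the GC box GGGCGG, the TATA box TATAAA, the CCAAT box CCAAT, the T-box site AGGTGT or the steroid receptor site AGAACA on either strand, and none was found.
Scn10a: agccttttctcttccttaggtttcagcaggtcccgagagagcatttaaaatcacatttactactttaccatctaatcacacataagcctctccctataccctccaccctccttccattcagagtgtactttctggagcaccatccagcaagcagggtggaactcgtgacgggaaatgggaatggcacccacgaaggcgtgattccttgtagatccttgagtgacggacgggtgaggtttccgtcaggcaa

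Hcn2 made up 92.4% of the summed Hcn signal per kilobase and Hcn4, the main sinus node isoform, 6.91%. Hcn2 ranged from 27.7 to 56.7 CPM over all mice and Hcn4 from 3.14 to 8.01 CPM, with log2 differences between genotypes of 0.09 (SE 0.095) and -0.16 (SE 0.13) averaged over both sexes. Neither was called in any contrast. Hcn3 was not abundant enough to be tested.

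Of the 10 inward rectifiers tested, 1 was called between the sexes, in Ctrl mice, against 0.638% of all genes. None was called between genotypes, against 0.443% of all genes in males and 0.0326% in females. Kcnj14 encodes Kir2.4, a member of the family that carries the inward rectifier current IK1 (chromosome 7, ENSMUSG00000058743). Its lowest, median and highest values were 1.37, 2.46 and 3.24 CPM in Ctrl males and 0.622, 0.803 and 1.52 CPM in Ctrl females. In cKO males they were 1.88, 2.28 and 3.02 CPM, and in cKO females 0.680, 1.51 and 2.28 CPM. Ctrl males and Ctrl females overlapped only between 1.37 and 1.52 CPM. Kcnj14 was lower in Ctrl females than in Ctrl males by -1.35 on the log2 scale (SE 0.26, edgeR adjusted p = 0.00861), a female mean of 39.1% of the male mean. In cKO mice the sex difference was -0.75 (SE 0.24, edgeR adjusted p = 0.0820) and did not pass. The change of the sex difference itself was 0.60 (SE 0.35, edgeR adjusted p = 0.999).

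The Ctrl sex call for Kcnj14 held in all 26 analyses with 1 mouse left out (edgeR adjusted p = 0.00330 to 0.0287). It was lost without Ctrl males 3 and 6 together, at -1.24 (edgeR adjusted p = 0.0758). Kcnj14 made up 4.61% ± 1.64 of the Kir2 signal per kilobase in Ctrl males (SD, n = 6) and 1.81% ± 0.885 in Ctrl females (SD, n = 6), so it was a minor Kir2 transcript in either sex. Kcnj12 (Kir2.2) led the family with 58.2% over all mice, followed by Kcnj2 (Kir2.1) with 33.5% and Kcnj4 (Kir2.3) with 4.75%. The groups overlapped in all 3: Kcnj12 ranged from 23.9 to 40.5 CPM, Kcnj2 from 17.3 to 52.8 CPM and Kcnj4 from 0.504 to 3.71 CPM.

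Kcnj15 encodes Kir4.2, an inward rectifier best known from epithelia. Its levels were 1.31, 1.41 and 2.10 CPM (lowest, median, highest) in Ctrl males, 0.869, 1.49 and 2.27 CPM in cKO males, 0.244, 0.935 and 1.10 CPM in Ctrl females and 0.952, 1.41 and 1.67 CPM in cKO females. Every Ctrl female lay below every Ctrl male, while all other pairs of groups overlapped. The sex difference in Ctrl mice was -0.94 (SE 0.24, edgeR adjusted p = 0.0622), just outside the threshold, and passed without cKO male 1 or cKO male 3 (lowest edgeR adjusted p = 0.0468). Among the channel genes it had the smallest p for a genotype effect that differed by sex (log2 0.83, SE 0.32, edgeR adjusted p = 0.999), with 161% of the control mean in cKO females and 91.2% in cKO males. The Ctrl female mean includes Ctrl female 2 at 0.244 CPM, far below the other Ctrl females.

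**Figure D2:**
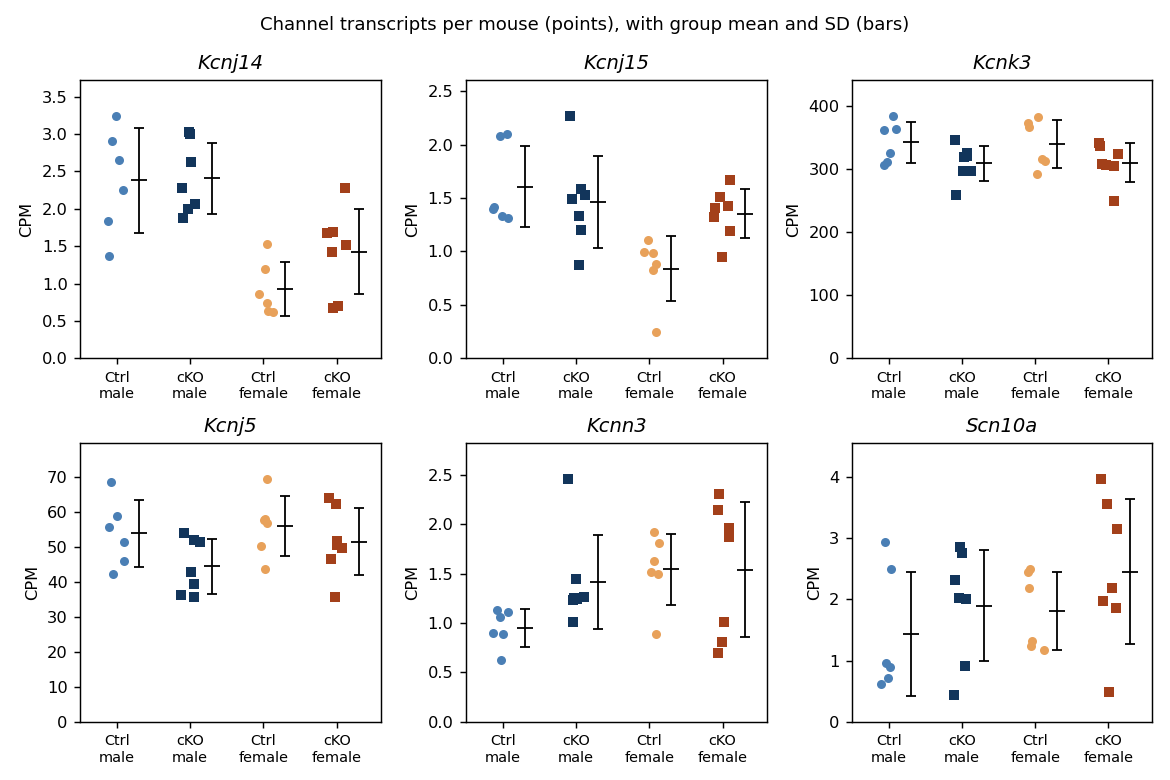
CPM of 6 channel genes in each mouse (points) by group, with the group mean and SD as bars beside the points and the axis starting at 0. Kcnj14 is lower in both female groups than in males, Kcnj15 is lowest in Ctrl females, and Scn10a varies several-fold within every group except Ctrl females.

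Kcnj5 and Kcnj3 encode the subunits of the acetylcholine-activated channel IKACh, which is most abundant in atria. Kcnj5 was at 42.2, 53.7 and 68.6 CPM (lowest, median, highest) in Ctrl males and at 35.6, 42.8 and 53.9 CPM in cKO males, and at 43.6, 57.3 and 69.3 CPM in Ctrl and 35.7, 50.5 and 64.1 CPM in cKO females. The ranges overlapped in both sexes. The mean difference of -0.20 (SE 0.095, edgeR adjusted p = 0.335) did not pass. Kcnj5 exceeded Kcnj3 by 1.84 ± 0.379 times per kilobase (SD over 26 mice). For the ATP-sensitive pores, Kcnj11 took 75.8% ± 3.38 of the pair's signal and Kcnj8, the pore typical of vascular muscle, the rest (SD over 26 mice), and the groups overlapped for both.

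The upstream sequences of the inward rectifiers Kcnj5 and Kcnj15 are given because these had the smallest p of a lower estimate in cKO males and of a sex-dependent genotype estimate. Each is the stretch of 250 bases before the RefSeq start (GRCm38.p6, 5′ to 3′), Kcnj5 at chr9:32344345-32344594 on the minus strand and Kcnj15 at chr16:95257308-95257557 on the plus strand. Capitals mark the 2 GC boxes (GGGCGG) found at Kcnj5, and none of the 5 motifs was found at Kcnj15.
Kcnj5: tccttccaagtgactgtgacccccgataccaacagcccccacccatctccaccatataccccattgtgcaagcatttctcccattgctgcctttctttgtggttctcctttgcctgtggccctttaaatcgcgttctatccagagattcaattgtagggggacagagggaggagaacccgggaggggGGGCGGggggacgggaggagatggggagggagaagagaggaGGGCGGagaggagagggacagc
Kcnj15: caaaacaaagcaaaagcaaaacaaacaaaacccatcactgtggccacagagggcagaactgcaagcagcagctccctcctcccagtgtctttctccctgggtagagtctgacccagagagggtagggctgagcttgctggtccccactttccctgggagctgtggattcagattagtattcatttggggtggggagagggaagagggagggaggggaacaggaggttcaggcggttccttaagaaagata
RefSeq start regions were held for 79 of the 110 genes, 62 of them with a single one. Of the 34 tested channel genes with a single region, 16 (47.1%) held a GC box, against 32.4% of 22862 genes with a single region, and their median GC content was 61.6% against 52%. None of the 34 held TATAAA (13.6% of all genes), 8 held CCAAT (23.5% against 34.7%), 7 held AGGTGT (20.6% against 12.2%) and 2 held AGAACA (5.88% against 16.4%). The 28 untested channel genes with a single region had a median GC content of 58.8%, and 14 (50%) held a GC box. Of these 28, 2 held TATAAA (7.14%), 7 CCAAT (25%), 5 AGGTGT (17.9%) and 4 AGAACA (14.3%).

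Leak channels of the K2P class were almost entirely Kcnk3, at 97.1% ± 0.576 of their signal per kilobase (SD over 26 mice). Kcnk3 was at 307, 344 and 384 CPM (lowest, median, highest) in Ctrl males, 259, 320 and 346 CPM in cKO males, 292, 341 and 383 CPM in Ctrl females and 249, 308 and 342 CPM in cKO females. In each sex 6 of 7 cKO mice lay below the control mean, yet the ranges overlapped. Its mean log2 difference was -0.14 (SE 0.054, edgeR adjusted p = 0.207) and did not pass. Kcnk6 (1.77% of the K2P signal) and Kcnk2 (0.567%), the stretch-sensitive channel TREK-1, were not called.

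None of the 19 tested voltage-gated potassium channel alpha subunits was called by edgeR in any contrast, against 0% to 2.7% of all genes. At an unadjusted p under 0.05 (edgeR) there were 5 (26.3%) between cKO sexes, against 17.3% of all genes. Between Ctrl sexes there were 0, against 12.1%. For genotype there were 0 in males, against 13.2%, and 2 in females (10.5%), against 5.15%. Kcnd2 (Kv4.2), the rapid transient outward channel, took 60.2% and Kcnd3 (Kv4.3) 31.3% of the summed signal per kilobase of Kcnd1, Kcnd2, Kcnd3 and Kcna4. Kcnd2 ranged from 12.0 to 19.3 CPM in Ctrl males, 12.5 to 23.2 in cKO males, 9.50 to 18.9 in Ctrl females and 9.77 to 18.9 in cKO females. Its subunit Kcnip2 exceeded it 20.4 ± 2.05 times per kilobase in the 6 Ctrl males and 18.3 ± 2.68 times in the 7 cKO males (mean ± SD). Females had ratios of 25.03 ± 4.21 (6 Ctrl mice) and 24.1 ± 5.44 (7 cKO mice), and the ranges of the 4 groups overlapped. Kcna5 (Kv1.5), which carries an ultrarapid delayed rectifier current, was at 14.98 CPM per kilobase.

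Delayed rectifier genes of large-animal hearts were present as well. Kcnh2 (hERG) was at 17.5 and Kcnq1 (the slow delayed rectifier pore) at 8.55 CPM per kilobase, while the Kcnq1 partner Kcne1 was at 0.678 CPM per kilobase. Kcnq1 shares its locus with the antisense RNA Kcnq1ot1.

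Small-conductance calcium-activated channels, which couple calcium to repolarization, were mainly Kcnn1 (78.2% of the SK signal per kilobase) and Kcnn2 (17.3%). Kcnn3 was at 0.621, 0.981 and 1.13 CPM (lowest, median, highest) in Ctrl males and 1.01, 1.25 and 2.45 CPM in cKO males, against 0.886, 1.57 and 1.92 CPM in Ctrl females and 0.694, 1.87 and 2.31 CPM in cKO females. All 7 cKO males lay above the Ctrl male mean, with a log2 difference of 0.55 (SE 0.26, edgeR adjusted p = 0.355) that did not pass. The sodium-activated channel Kcnt2 had a mean difference of 0.27 (SE 0.10, edgeR adjusted p = 0.185), likewise not called.

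Across the whole set, few channel transcripts were called between genotypes, and few genes of any kind were. A gene without a call is not thereby shown to be unchanged. In males 1 of 62 tested channel genes was called (1.61%), against 0.443% of all 15357 genes tested. At an unadjusted p under 0.05 there were 4 channel genes (Kcnn3 and Kcnj5 among them), or 6.45%, against 13.2% of all genes. No channel gene was called in males without Ctrl male 2, 3, 5 or 6 or cKO male 1, 5 or 6, nor without Ctrl males 3 and 6 together. In females edgeR, DESeq2 and limma voom each called 0 channel genes, against 0.0326% of all genes by edgeR, and 5 were under an unadjusted p of 0.05 (Kcnj14 and Kcnj15 among them; 8.06% against 5.15%). Averaged over both sexes 1 was called (1.61% against 1.33% of all genes), and 8 were under an unadjusted p of 0.05 (12.9% against 14.1%). No channel gene had Ctrl and cKO values without overlap, against 1.28% of all genes in males and 0.169% in females.

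In males 44 of 62 estimates were under 0.25 in size on the log2 scale, and in females 49 of 62. The median absolute log2 difference was 0.16 in males against 0.096 over all genes tested, and 0.13 in females against 0.074. These medians include the 35 tested channel genes below 1 CPM per kilobase. How far low counts widened them was not tested. The estimates had the same sign in both sexes for 44 of 62 channel genes (71.0%), against 59.6% of all genes. A sex-dependent genotype effect was called for 0 channel genes by edgeR, DESeq2 and limma voom, and for 0% of all genes by edgeR, with 1 channel gene (Kcnj15) under an unadjusted p of 0.05 against 3.96% of all genes.

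**Figure D3:**
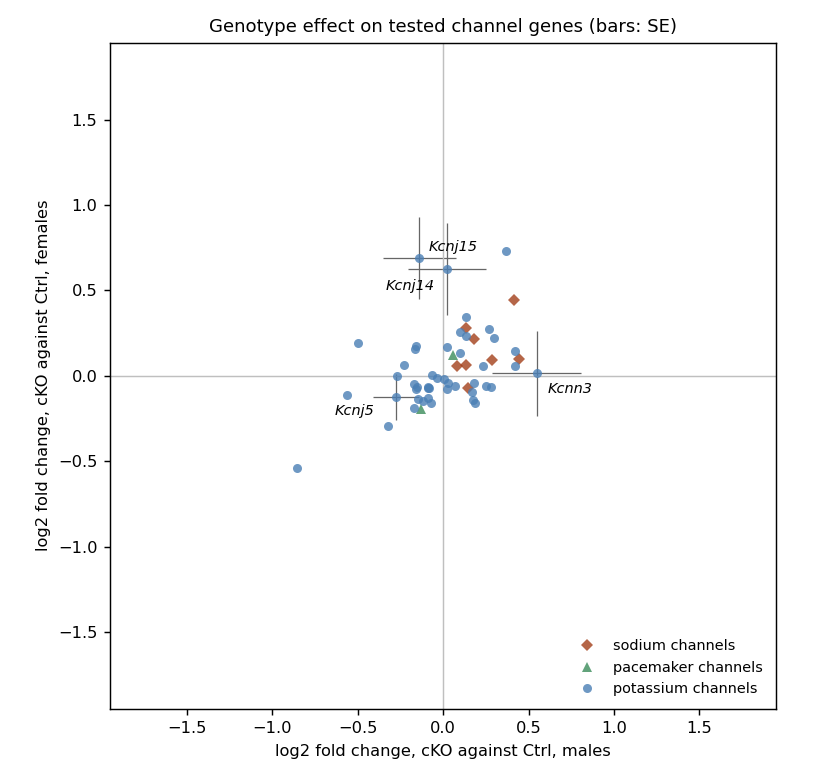
Log2 fold change of cKO against Ctrl in males (x axis) and females (y axis) for 56 of the tested channel genes, with SE bars on the named ones and symbols for sodium, pacemaker and potassium channels. Most points lie close to zero on both axes, Kcnj15 and Kcnj14 lie above zero in females and near zero in males, and Kcnn3 lies right of zero in males.

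Between the sexes 1 of 62 tested channel genes was called in each genotype (1.61%). In Ctrl mice Kcnj14 was called, against 0.638% of all genes, and 7 channel genes were under an unadjusted p of 0.05 (11.3% against 12.1%). Kcnab1, a cytoplasmic beta subunit of Kv1 channels, and Kcnj15 were the 2 of 62 whose Ctrl male and Ctrl female values did not overlap, against 1.02% of all genes. Kcnab1 lay at 0.861 to 1.36 CPM in Ctrl males and 0.541 to 0.829 CPM in Ctrl females (log2 -0.62, SE 0.22, edgeR adjusted p = 0.225). Higher estimates in Ctrl females belonged to Kcne1 (0.80, SE 0.25, edgeR adjusted p = 0.154) and to Kcnv2, an electrically silent subunit (0.53, SE 0.18, edgeR adjusted p = 0.176), and neither passed.

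In cKO mice 1 channel gene was called between the sexes, against 2.7% of all genes. That count was 0 without cKO male 1, 5, 6 or 7 or cKO female 2, 3, 4 or 7, and 2 without cKO female 6. In all, 8 were under an unadjusted p of 0.05 (12.9% against 17.3% of all genes). Among them Kcnc4 had an estimate of 1.03 (SE 0.40, edgeR adjusted p = 0.161) from levels of 0.0392 to 0.652 CPM in cKO males and 0.315 to 1.89 CPM in cKO females. The sex difference had the same sign in Ctrl and cKO mice for 45 of 62 channel genes (72.6%), against 66.0% of all genes. No channel gene had cKO male and cKO female values without overlap, against 1.09% of all genes.

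**Figure D4:**
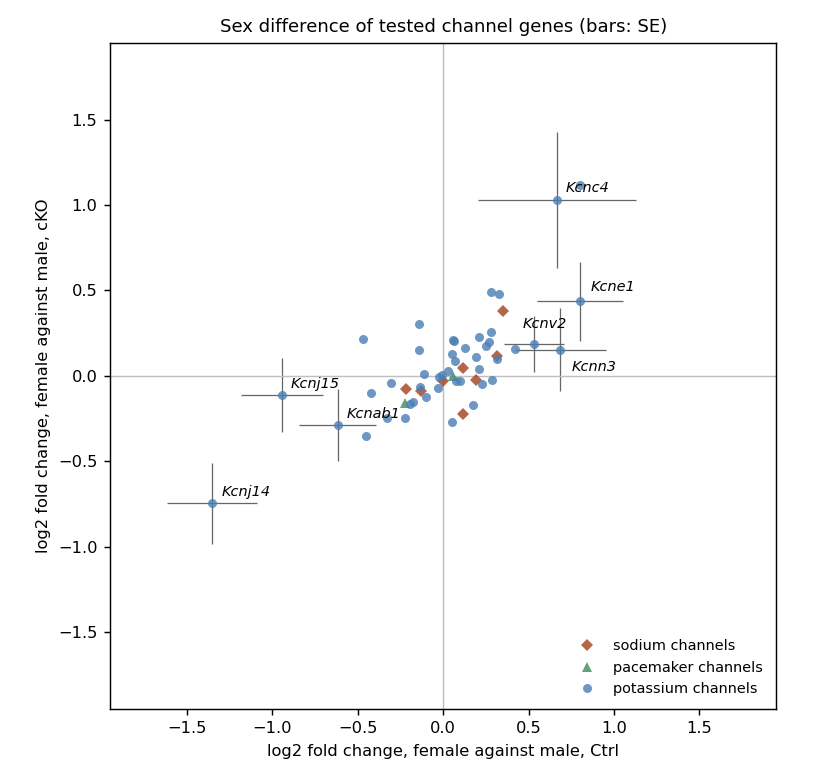
Log2 fold change of females against males in Ctrl (x axis) and cKO mice (y axis) for 56 of the tested channel genes, with SE bars on the named ones. Kcnj14 is lowest on both axes, and Kcnj15 lies left of zero in Ctrl mice and nearer to zero in cKO mice.

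Several channel genes varied between mice together with Cntn2, a cell adhesion gene that marks the ventricular conduction system. Cntn2 spanned 0.0700 to 13.7 CPM over the 26 mice with no call between genotypes (mean genotype log2 difference 0.44, SE 0.50). The lowest value, in cKO female 2, lay below the 3-count level of that library (0.210 CPM). The comparison was chosen after these values were seen. On log2(CPM + 0.1) values centred on each group's mean, Scn10a had Pearson r = 0.79 (adjusted permutation p = 0.00434) and Spearman rho = 0.76 (adjusted permutation p = 0.00372) with Cntn2 among 62 such relations. Of these, 6 passed by Pearson, all positive, among them Scn10a, Kcnj12, Scn4a, Hcn4 and Kcnh2, and 3 also passed by Spearman, Scn10a and Kcnj12 among them. Scn4a, Hcn4 and Kcnh2 did not pass by Spearman (adjusted permutation p = 0.0662, 0.0662 and 0.0997). The lowest r among those that passed by Pearson was 0.55, a value reached by 7 of the 62 channel genes (11.3%) and by 350 of all 15356 genes tested other than Cntn2 (2.28%). This cut was taken from a channel gene, which favours the channel share. The difference was not tested.

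Without the 2 mice farthest from the Cntn2 median, r was 0.69 for Scn10a and 0.52 for Kcnj12. For Scn4a, Hcn4 and Kcnh2 it was then 0.59, 0.48 and 0.48. Within groups r ranged from -0.028 (Ctrl females) to 0.95 (cKO females) for Scn10a and from 0.45 to 0.87 for Kcnj12, so for Scn10a it was near zero in Ctrl females. The ranges within groups were 0.33 to 0.91 for Scn4a, 0.20 to 0.86 for Hcn4 and 0.22 to 0.93 for Kcnh2. All of these genes share each mouse's library, and how much conduction tissue each piece held was not tested. The conduction list of 5 genes, of which 2 were tested, summed to 0.557 to 9.39 CPM in Ctrl males, 1.08 to 10.1 CPM in cKO males, 2.74 to 9.74 CPM in Ctrl females and 0.560 to 14.7 CPM in cKO females. The high sums were mostly Cntn2 itself (13.7 of 14.7 CPM in cKO female 4). No other member exceeded 0.760 CPM in any mouse, and Isl1 was at 0 throughout. The relation thus rests on 1 marker and not on the list.

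**Figure D5:**
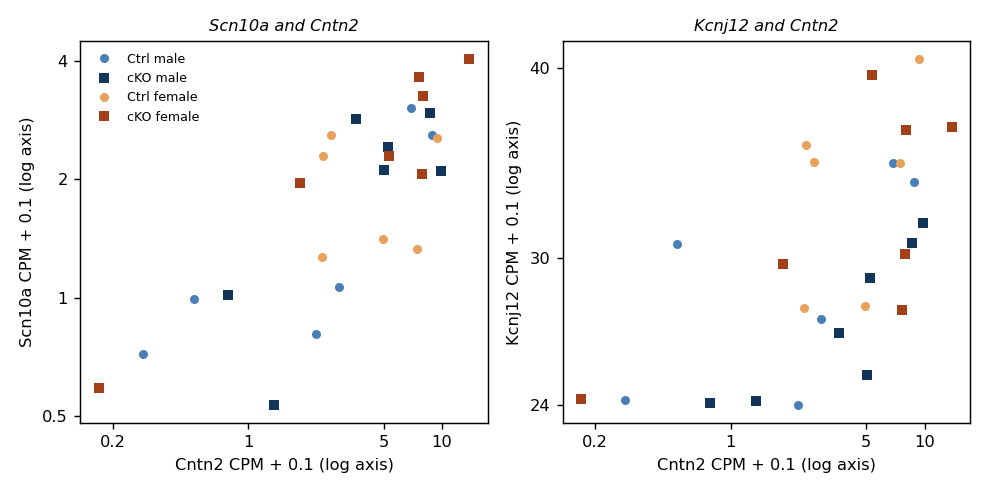
CPM plus 0.1 per mouse on log axes for Scn10a and Kcnj12 against Cntn2, with 1 point per mouse and colour for the group. The lowest Scn10a and most of the lowest Kcnj12 values belong to mice low in Cntn2, and the groups are intermixed.

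Genes that anchor, regulate or accompany these channels were followed as a list of 53, of which 50 were tested. None was called in males by edgeR, against 0.443% of all genes. DESeq2 and limma voom each called Cav3 there, against 399 and 211 of all 15357 genes. By edgeR 4 were under an unadjusted p of 0.05 (8% against 13.2% of all genes). In females none was called by edgeR, DESeq2 or limma voom, against 0.0326% of all genes by edgeR, and 3 were under an unadjusted p of 0.05 (6% against 5.15% of all genes). Averaged over both sexes 1 of 50 was called, against 1.33% of all genes: Cav3, the muscle caveolin that scaffolds several channels, fell by 0.15 on the log2 scale (SE 0.035, edgeR adjusted p = 0.0238). Cav3 lay at 55.9 to 60.3 CPM in Ctrl males and 47.3 to 53.5 CPM in cKO males. These ranges did not overlap, which held for 1.28% of all genes in males. In females Cav3 lay at 48.3 to 60.9 CPM in Ctrl and 48.5 to 57.7 CPM in cKO mice, which overlapped. The median of the 50 mean differences was -0.034, against 0.0042 over all genes. Of the 50, 31 were below zero, against 7428 of all 15357 genes.

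Markers of other cell types were read beside these results. The summed atrial list (Nppa, Myl7, Myl4, Sln, Bmp10) was at 87.5 to 424 CPM in Ctrl males and 126 to 738 CPM in cKO males, and at 179 to 509 CPM in Ctrl females and 325 to 856 CPM in cKO females, nearly all from the natriuretic peptide gene Nppa (mean log2 difference 0.95, SE 0.27, edgeR adjusted p = 0.0812). Of these 5, 2 were tested, and Myl7 and Sln were at or near 0. The summed cardiomyocyte list of 8 genes was at 66511 to 74648 CPM in Ctrl males and 58753 to 69926 CPM in cKO males, and at 66947 to 80601 CPM in Ctrl females and 63662 to 75549 CPM in cKO females, so the ranges overlapped in each sex. Averaged over both sexes all 8 estimates were below zero, against 7428 of all 15357 genes tested. Of the 8, 4 were under an unadjusted p of 0.05 (against 14.1% of all genes) and 1 was called (against 1.33%). The called gene was Tnni3, which also fell in cKO males (log2 -0.24, edgeR adjusted p = 0.0316). Between the cKO sexes 5 of the 8 were under an unadjusted p of 0.05 (against 17.3% of all genes) and 2 were called (against 2.7%). The called genes were Myl2 and Tnni3, both higher in females (log2 0.26 and 0.24, edgeR adjusted p = 0.0231 and 0.00821). The part of these shifts in the channel results was not tested. In tissue RNA, fewer cells of a type and less RNA per cell cannot be told apart.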

How the data were processed

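Per the labels, stranded poly-A libraries were made from about 20 mg of left ventricle with an RNA integrity number of at least 7.7. For all 26 samples the deposited values are raw read counts of genes, not normalized. Per the submitters' processing notes, FastQC 0.74, cutadapt 4.6, STAR 2.7.11a, HTSeq and GRCm39 were used, and the annotation and strand setting are not given in the sources used here. The main test was the quasi-likelihood F test of edgeR 4.0.16 (R 4.3.3), robust, in a single model of the 4 group means over all mice. It used TMM scaling and the genes passing filterByExpr at a minimum count of 10. Benjamini-Hochberg adjustment covered the 15357 genes tested, with calls under 0.05. CPM used TMM-scaled totals, and merged exon length came from GENCODE M21 by gene ID (110 of 110 matched). Limma 3.58.1 and DESeq2 1.42.0 served alternatives. The tests were also run on simulated data with 200 changed genes, for the genotype contrast in males only. The outcome is not given here, and the genes without a call are not judged by it.

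Pairs of samples within a group differed beyond sampling noise (chi-square per degree of freedom 7.79 to 36.4 over 72 pairs), so all were kept. Permutation tests are two-sided and permuted mice within groups 100000 times. The members, lists and tests were chosen with earlier results of these data known. Named genes are Ppp2r2a, members and partners called, the 3 higher and 3 lower members of smallest p per contrast, genes of the main cardiac currents and the 10 most abundant per length. Some channel genes are not reported here by name. Genes named outside the comparisons that select them, the relation to Cntn2, Scn4a, Kcnd1, Kcnn1, Kcnk6 and the genes without counts were chosen after their values were seen. Alternatives comprised other scalings, tools, filters and thresholds, the replicate block, omission of mice, and, chosen after seeing the data, splines of transcript length and GC (4 degrees of freedom).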

Additional observations from a re-analysis of the deposited data

Results flagged for a closer look

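Of the 136 series of named genes within a group, 7 held a mouse far from the others by Dixon's criterion, where about 1 in 20 is expected by chance. Kcnk3 was at 249 CPM in cKO female 2, below the other cKO females. Kcnd2 was at 23.2 CPM in cKO male 4 and Kcnn3 at 2.45 CPM in cKO male 6, each above the other cKO males. Kcnq1 was at 27.5 CPM in Ctrl male 4, below the other Ctrl males. Kcnj15 was at 0.244 CPM in Ctrl female 2, below the other Ctrl females. Kcnn2 was at 4.03 CPM in cKO female 7 and Kcnt2 at 4.62 CPM in cKO female 5, the lowest and the highest of their group. No mouse appears more than once in this list.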

How the results depend on the processing

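The labels do not say whether a replicate number pairs mice. Same-numbered mice of a sex had correlations of deviations from -0.19 to 0.10 in males and -0.088 to 0.48 in females. In males 1 of 6 and in females 3 of 6 such pairs exceeded 0.1. The mean was -0.018 against 0.0030 for other pairs in males, and 0.14 against -0.022 in females. Whether same-numbered females shared a litter or day was not tested. With the replicate number as a block, 0 channel genes were called in males and 0 over both sexes, 0 partner genes were called over both sexes, where Cav3 had an edgeR adjusted p of 0.0703. The same held for the length and GC correction with the block (0, 0 and 0, with Cav3 at 0.0929). Without Ctrl males 3 and 6, 0 channel genes were called in males and 0 between Ctrl sexes. Without the female mice numbered 2, 0 were called between cKO sexes and 1 partner (Cav3) in males. DESeq2 called 2 between Ctrl sexes (Kcnj14, Kcnj15) and 2 between cKO sexes (Kcnj14 among them), and voom called 2 between cKO sexes, Kcnj14 among them. A mean of at least 5 CPM left 0 between Ctrl sexes, since Kcnj14 was not tested. For partners, DESeq2, voom, no robust estimation, that filter and a fit of only the compared groups each called 1 in males (Cav3), and DESeq2, voom and that filter called 2 over both sexes (Abcc8, Cav3). At an adjusted p under 0.01, 0 channel genes were called in males, over both sexes and between cKO sexes, and 0 partners over both sexes. Under 0.10 there were 2 between Ctrl sexes, 2 between cKO sexes, 1 partner in males and 2 over both sexes. Unless stated, the cause was not tested.

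With each mouse left out in turn, channel calls ranged from 0 to 1 in males, 1 to 2 between Ctrl sexes and 0 to 2 between cKO sexes, and partner calls from 0 to 1 in males and 1 to 2 over both sexes. Among the values for single genes, 826 kept direction and side of the threshold, 3 lost and 16 gained the call, and 0 reversed. A fit of only the compared groups has no form for the mean and the difference between sexes. Over all genes the counts of calls moved more widely. In males 68 were called, against 399 with DESeq2, 211 with voom, 164 at a mean of at least 5 CPM, 160 without the female mice numbered 2, 31 without a filter, 34 with the block, 33 with the length and GC correction, 3 with both and 7 without Ctrl males 3 and 6. In females 5 were called, against 9 with DESeq2, 2 at that mean, 1 in a fit of only the compared groups, 2 with the block and 2 with both. Over both sexes 205 were called, against 549 with DESeq2, 325 with voom, 113 without a filter, 109 with the block and 31 with both. Between Ctrl sexes 98 were called, against 253 with DESeq2, 61 in a fit of only those groups and 40 without Ctrl males 3 and 6, and between cKO sexes 414, against 707 with DESeq2, 688 with voom and 244 without a filter. Depth limits genes below about 1 CPM, such as Kcnc4.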
